A study of Homo sapiens with 32 samples.

Results

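The 29 genes described here encode enzymes of cholesterol and fatty acid synthesis, their regulators and 1 sterol carrier. They were chosen by name, not by measured values, and all 29 were found among the 25066 features measured. By role they are 7 genes of the mevalonate and isoprenoid steps, 9 of the squalene and sterol steps, 8 of the fatty acid steps, 4 regulators, and the sterol carrier gene STARD4. RNA was sequenced from 2 human diffuse large B-cell lymphoma lines, TMD8 (activated B cell subtype) and DOHH2 (germinal centre subtype). Cells received 500 nM CSKi, a CSK inhibitor, or the vehicle DMSO, for 1, 3, 6 or 24 h, in 2 libraries per group (16 groups, 32 libraries). All groups of both lines carry an engineered Cas9, so no group without it is compared, and each line is 1 established line grown in culture medium with 5% serum. The inhibitor is known here only as CSKi.

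CSK phosphorylates the inhibitory tail of Src family kinases, and these kinases start signalling from the B cell receptor. Cells make cholesterol from acetyl-CoA through mevalonate, isoprenoids and squalene, and fatty acids through malonyl-CoA. Both branches are switched on by the SREBP transcription factors, encoded by SREBF1 and SREBF2. When membranes hold enough sterol, INSIG1 keeps SREBP and its escort SCAP in the endoplasmic reticulum, and the genes of the pathway are less transcribed. Proliferating B cells draw on both branches for membrane.

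Libraries held 12273442 to 24907030 mapped reads. The summed reads of 6 B cell markers were 52557 to 88526 in TMD8 libraries and 20485 to 37827 in DOHH2 libraries, and none of the 6 stayed at 3 reads or fewer in either line. The 3 liver cell markers summed to at most 4 reads and the 3 fat cell markers to at most 6 reads in any library. The 6 T and NK cell markers summed to 27 to 61 reads in TMD8 libraries and 48 to 102 reads in DOHH2 libraries, and the 5 myeloid markers to 51 to 108 reads in TMD8 libraries and 95 to 202 reads in DOHH2 libraries. The 6 fibroblast and epithelium markers summed to 281 to 751 reads in TMD8 libraries and 1 to 11 reads in DOHH2 libraries, and the part of these lists in the differences between the lines was not tested. In 14 groups the correlation of duplicates, taken over features, was 0.9934 to 0.9963, and in the DOHH2 groups of 24 h it was 0.9888 with CSKi and 0.9903 with DMSO. The DOHH2 libraries of 24 h also went against their labels. By the SD over features of the log2 difference between libraries, the one labelled CSKi replicate 2 was closer to DMSO replicate 1 (0.278) than to its own duplicate (0.398), and CSKi replicate 1 was closer to DMSO replicate 2 (0.318). DOHH2 results at 1, 3 and 6 h were therefore fitted without these 4 libraries. Values are scaled by 1 factor per library, so fewer cells and less RNA per cell cannot be told apart.

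To show what the start regions of pathway genes hold, the 250 bases before the transcription start are printed for HMGCS1, LSS, SREBF2, INSIG1 and SCD, from the RefSeq table of GRCh38.p14. They lie on the gene's strand, 5′ to 3′, with the sterol response element TCACNCCAC and the CCAAT box (CCAAT, or ATTGG on the other strand) in capitals. The positions are HMGCS1 chr5:43313413-43313662 (minus strand), LSS chr21:46228775-46229024 (minus), SREBF2 chr22:41832855-41833104 (plus), INSIG1 chr7:155297628-155297877 (plus) and SCD chr10:100346983-100347232 (plus).
HMGCS1: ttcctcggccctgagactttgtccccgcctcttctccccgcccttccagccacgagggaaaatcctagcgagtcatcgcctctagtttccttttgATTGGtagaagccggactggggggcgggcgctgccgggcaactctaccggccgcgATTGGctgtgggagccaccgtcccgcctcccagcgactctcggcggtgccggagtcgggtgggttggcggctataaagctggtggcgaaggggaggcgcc
LSS: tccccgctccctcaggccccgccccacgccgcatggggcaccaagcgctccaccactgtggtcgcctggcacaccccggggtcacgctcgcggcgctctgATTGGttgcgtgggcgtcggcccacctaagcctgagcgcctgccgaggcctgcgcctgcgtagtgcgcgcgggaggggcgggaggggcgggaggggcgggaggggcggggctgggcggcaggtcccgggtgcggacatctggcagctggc
SREBF2: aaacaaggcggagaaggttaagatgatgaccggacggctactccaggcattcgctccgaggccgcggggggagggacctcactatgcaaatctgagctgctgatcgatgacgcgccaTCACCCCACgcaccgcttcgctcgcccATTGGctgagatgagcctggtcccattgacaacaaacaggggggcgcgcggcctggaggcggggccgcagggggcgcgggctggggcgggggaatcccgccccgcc
INSIG1: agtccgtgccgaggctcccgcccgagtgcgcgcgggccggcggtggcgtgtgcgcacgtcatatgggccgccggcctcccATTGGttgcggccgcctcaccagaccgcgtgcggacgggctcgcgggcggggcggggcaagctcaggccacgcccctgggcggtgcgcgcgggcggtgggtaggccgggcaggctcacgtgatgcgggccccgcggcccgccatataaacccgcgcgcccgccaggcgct
SCD: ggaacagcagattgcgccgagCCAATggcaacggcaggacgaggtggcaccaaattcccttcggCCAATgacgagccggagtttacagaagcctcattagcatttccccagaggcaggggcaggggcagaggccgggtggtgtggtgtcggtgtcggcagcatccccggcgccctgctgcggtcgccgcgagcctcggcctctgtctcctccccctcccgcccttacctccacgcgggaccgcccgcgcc

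The CCAAT box is bound by NF-Y, a usual partner of SREBP. The 5 windows printed hold at least 1, by choice: the window of SREBF1 and the other window of HMGCS1, not printed, hold none. Over the members, 25 of 29 had at least 1 window in the table, and 21 of their 34 windows held a CCAAT box on either strand, against 32.0% of all 34943 windows. The exact letters TCACNCCAC were found in 1 member gene, SREBF2, and in 0.881% of all windows. In SREBF2 the element starts 133 bases before the transcription start, followed by a CCAAT box 106 bases before it. SREBP also binds variants of its element that these letters miss, and a match is only a match of letters.

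In TMD8 with CSKi, 3 members were lower at 3 h, and FASN was the only fatty acid gene among them. The median of the 7 fatty acid genes tested was then -0.01. At 6 h transcripts of both branches were lower. At 24 h members had moved both ways, 12 higher and 5 lower, where 27.9% of all features rose and 26.2% fell. LSS, TM7SF2, MVD and SREBF2 were among those above DMSO, and FASN, ACACA and ACLY among those below it. Of the 29 members, 28 passed the filter on low values in TMD8 (the 12000 features with the highest means), and the desaturase gene FADS2 did not, with 1 to 12 reads per TMD8 library. Differences are log2 values of CSKi minus DMSO with the SE of the limma fit, and a gene is said to rise or fall at a Benjamini-Hochberg adjusted p under 0.05 over all features tested.

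**Figure D1:**
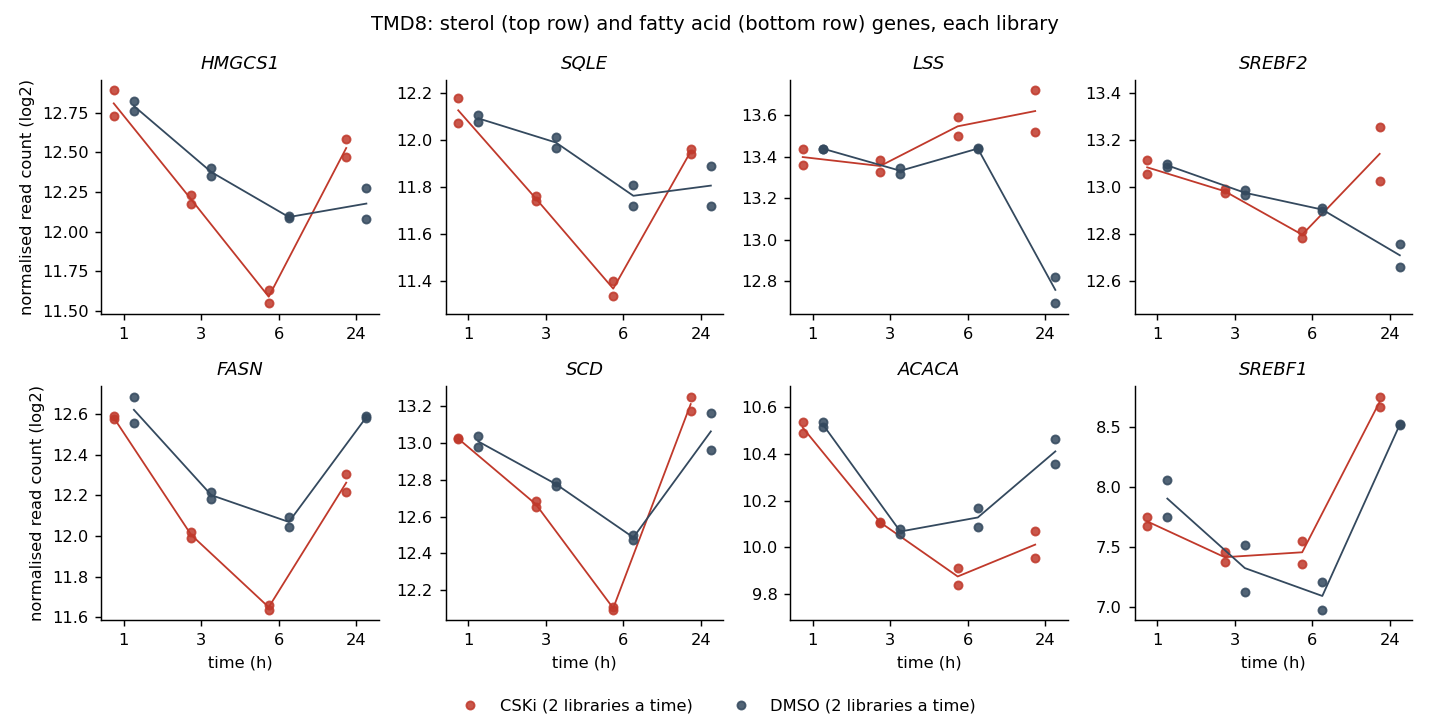
Normalised read count (log2, y axis) of 8 genes in each TMD8 library against time in h (x axis), with CSKi in red left of DMSO in dark blue; lines join the means of 2 libraries. HMGCS1, SQLE, FASN and SCD show both CSKi libraries below both DMSO libraries at 6 h, LSS and SREBF2 show them above at 24 h, and FASN and ACACA show them below at both times.

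At 1 h none of the 28 members differed in TMD8, where 0.05% of features did. At an unadjusted p under 0.05 there were 2 members (4.83% of all features), and voom on recovered reads also called 0. HMGCS1 stood at 0.02 ± 0.06, FASN at -0.04 ± 0.04 and SREBF2 at -0.01 ± 0.05 (n = 2 and 2 here and below).

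At 3 h, 3 members fell and none rose (3.26% of features fell and 1.48% rose, 4.73% in all). SQLE, which encodes squalene epoxidase, a rate-limiting enzyme of sterol synthesis, had log2 values of 11.74 and 11.76 with CSKi, against 11.96 and 12.01 with DMSO (-0.24 ± 0.05, adjusted p = 0.00454). FASN, which encodes fatty acid synthase, had 12.02 and 11.99 with CSKi, against 12.22 and 12.18 with DMSO (-0.20 ± 0.04, adjusted p = 0.00652). NSDHL, a sterol dehydrogenase gene, had 10.15 and 10.13 with CSKi, against 10.38 and 10.35 with DMSO (-0.23 ± 0.06, adjusted p = 0.015). In each of the 3 genes both CSKi libraries lay below both DMSO libraries. The sign was negative in 20 of 28 members, with a median of -0.06 beside 0.01 over all features. Without any 1 of the 4 libraries a single member was called. NSDHL was then lost each time (adjusted p up to 0.15), SQLE without CSKi replicate 1 (-0.23) or DMSO replicate 2 (-0.21), and FASN without CSKi replicate 2 or DMSO replicate 1 (-0.18 each).

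At 6 h, 13 of 28 members fell in TMD8 and none rose, where 6.98% of features fell and 5.67% rose. The median of the members was -0.20, beside 0.02 over all features (0.015 before rounding). All 3 enzyme groups took part, with 4 of 7 mevalonate and isoprenoid genes, 4 of 9 squalene and sterol genes and 5 of 7 fatty acid genes, but 0 of 4 regulators.

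Among the mevalonate and isoprenoid genes, HMGCS1, which encodes the synthase that makes HMG-CoA, had log2 values of 11.55 and 11.63 with CSKi, against 12.10 and 12.09 with DMSO. The groups did not overlap, and the difference was -0.50 ± 0.06 (adjusted p = 4.91e-07). IDI1, the isopentenyl diphosphate isomerase gene, had 11.09 and 11.04 with CSKi, against 11.35 and 11.43 with DMSO (-0.33 ± 0.06, adjusted p = 0.000696). ACAT2, the cytosolic thiolase gene that opens the pathway, fell by 0.29 ± 0.07, and MVK, the mevalonate kinase gene, fell by 0.31 ± 0.09. The other 3 did not pass the test, MVD at -0.20 ± 0.07, FDPS at -0.13 ± 0.05 and PMVK at 0.13 ± 0.06.

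Among the sterol genes, SQLE had 11.33 and 11.40 with CSKi, against 11.72 and 11.81 with DMSO (-0.40 ± 0.05, adjusted p = 3.85e-06). CYP51A1, the lanosterol demethylase gene, had 10.73 and 10.81 with CSKi, against 11.18 and 11.29 with DMSO (-0.46 ± 0.06, adjusted p = 4.87e-06). DHCR7, whose product catalyses a last reduction to cholesterol, had 10.19 and 10.24 with CSKi, against 10.73 and 10.72 with DMSO (-0.51 ± 0.08, adjusted p = 3.1e-05). In these 3 genes every CSKi library lay below every DMSO library, by more than the duplicates differed. FDFT1, the squalene synthase gene at the branch point to sterols, fell by 0.24 ± 0.05 (adjusted p = 0.00108). LSS, which encodes lanosterol synthase, the enzyme that closes the sterol rings, stood on the other side of 0 at 0.11 ± 0.05 (adjusted p = 0.175), with 13.50 and 13.59 with CSKi against 13.44 and 13.44 with DMSO.

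The fatty acid genes fell by similar amounts. FASN had 11.64 and 11.66 with CSKi, against 12.10 and 12.04 with DMSO (-0.42 ± 0.04, adjusted p = 1.32e-07). SCD, which encodes the desaturase that makes monounsaturated fatty acids, had 12.11 and 12.09 with CSKi, against 12.50 and 12.47 with DMSO (-0.38 ± 0.05, adjusted p = 1.49e-06). In both genes the gap between the groups was wider than that between duplicates. ACACA, the acetyl-CoA carboxylase gene that commits carbon to fatty acids, fell by 0.25 ± 0.06, the desaturase gene FADS1 by 0.45 ± 0.13 and ACLY, the citrate lyase gene that supplies acetyl-CoA, by 0.12 ± 0.04. The elongase gene ELOVL6 stood at -0.66 ± 0.23 (adjusted p = 0.0627) on 21 and 28 reads with CSKi, against 39 and 42 reads with DMSO.

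The regulators did not pass the test at 6 h. SREBF2 was at -0.11 ± 0.05, INSIG1 at -0.06 ± 0.06, SCAP at 0.02 ± 0.05 and SREBF1 at 0.36 ± 0.14 (adjusted p = 0.105), the last with 7.55 and 7.36 with CSKi against 7.21 and 6.98 with DMSO. Leaving out 1 library left 9 to 10 members called. The calls of ACLY (values -0.14 to -0.09) and FADS1 (-0.50 to -0.40) were lost without any 1 of the 4 libraries. That of ACACA was lost without CSKi replicate 2 (-0.22) or DMSO replicate 1 (-0.21), of ACAT2 without CSKi replicate 1 (-0.26) or DMSO replicate 1 (-0.22), and of MVK without CSKi replicate 1 (-0.23) or DMSO replicate 2 (-0.19).

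**Figure D2:**
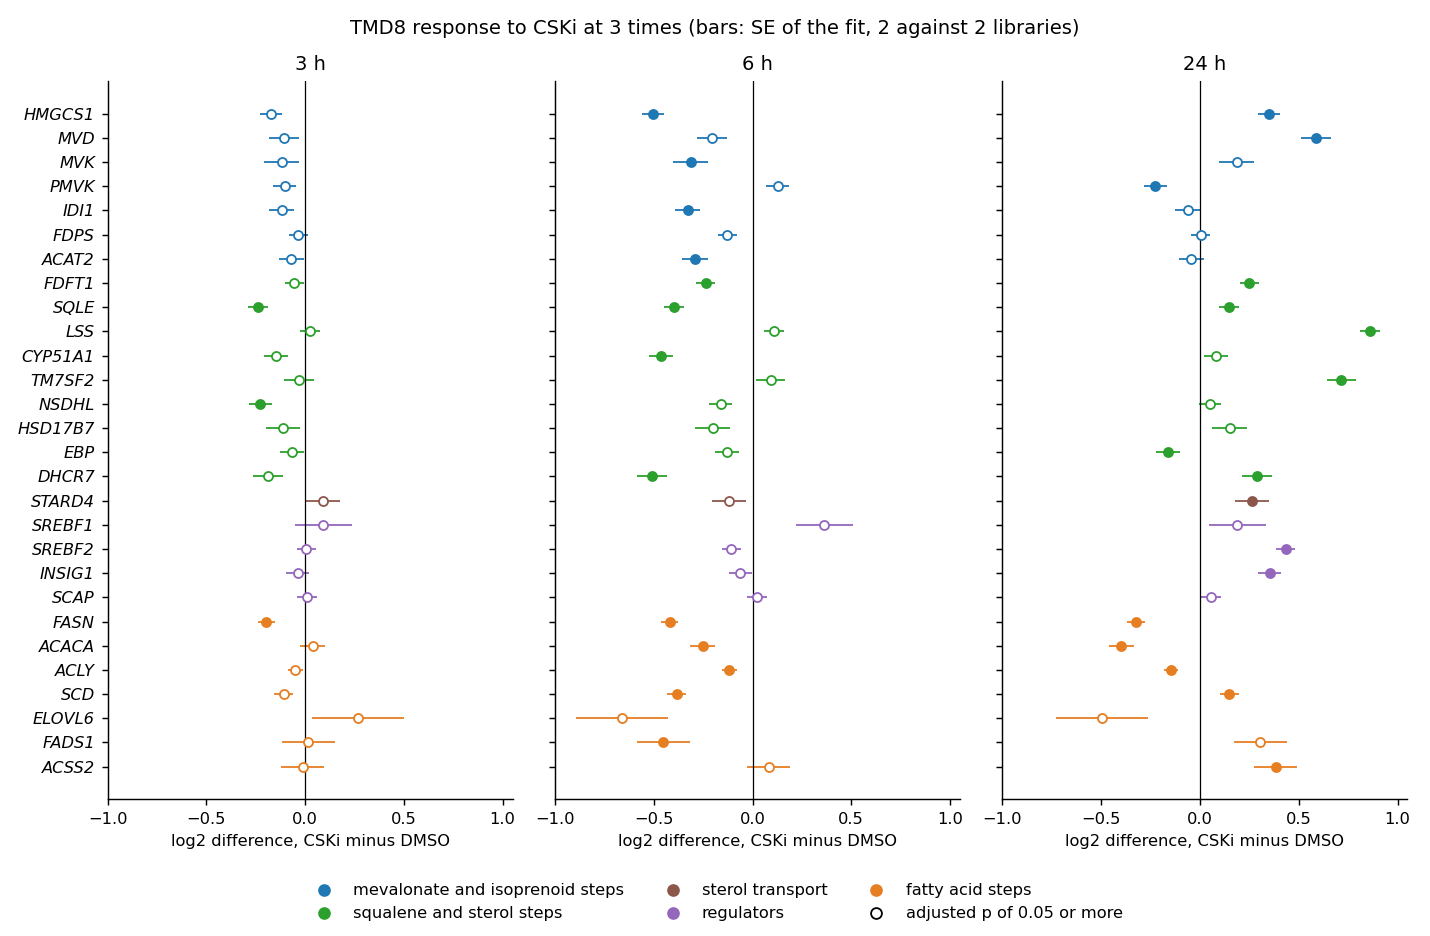
Log2 difference of CSKi minus DMSO (x axis) for the 28 tested members (rows, coloured by role) in TMD8 at 3, 6 and 24 h; bars are the SE of the fit and open circles have an adjusted p of 0.05 or more. Filled points lie left of 0 at 3 h and 6 h (3 and 13 genes), while at 24 h 12 lie right and 5 left of it.

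At 24 h, 12 of 28 members rose in TMD8 and 5 fell. Most of what was tested differed at this time (54.0% of features). The median of the members was 0.15, beside 0.02 over all features. Of 9 squalene and sterol genes 5 rose and 1 fell, of 7 mevalonate and isoprenoid genes 2 rose and 1 fell, of 4 regulators 2 rose, and of 7 fatty acid genes 2 rose and 3 fell.

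LSS showed the largest rise among the members. It had 13.72 and 13.52 with CSKi, against 12.82 and 12.70 with DMSO (0.86 ± 0.05, adjusted p = 2.89e-13). TM7SF2, a sterol reductase gene of the later steps, had 11.04 and 10.78 with CSKi, against 10.25 and 10.14 with DMSO (0.72 ± 0.07, adjusted p = 1.39e-08). MVD, the diphosphomevalonate decarboxylase gene, had 11.31 and 11.01 with CSKi, against 10.69 and 10.45 with DMSO (0.59 ± 0.07, adjusted p = 3.3e-07). In all 3 genes both CSKi libraries lay above both DMSO libraries, and MVD and TM7SF2 had wider gaps between the CSKi duplicates than LSS. HMGCS1, lower at 6 h, had 12.59 and 12.47 with CSKi, against 12.27 and 12.08 with DMSO (0.35 ± 0.06, adjusted p = 1.09e-05).

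Both genes of the sterol sensing system that rose were separated between the groups. SREBF2, which encodes the SREBP that drives sterol genes, had 13.26 and 13.03 with CSKi, against 12.76 and 12.66 with DMSO (0.43 ± 0.05, adjusted p = 5.85e-08). INSIG1 had 11.31 and 11.32 with CSKi, against 11.06 and 10.86 with DMSO (0.35 ± 0.06, adjusted p = 1.25e-05). SREBF1, which encodes the SREBP tied more to fatty acid genes, stood at 0.19 ± 0.14 and SCAP at 0.06 ± 0.05, neither past the test. Of the remaining members that rose, ACSS2, which makes acetyl-CoA from acetate, did so by 0.38 ± 0.11, DHCR7 by 0.29 ± 0.08, STARD4 by 0.26 ± 0.09, FDFT1 by 0.25 ± 0.05, SCD by 0.15 ± 0.05 and SQLE by 0.15 ± 0.05.

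The 3 enzymes that lead from citrate to palmitate were below DMSO at 24 h. FASN had 12.31 and 12.22 with CSKi, against 12.59 and 12.58 with DMSO (-0.32 ± 0.04, adjusted p = 8.78e-07). ACACA had 9.95 and 10.07 with CSKi, against 10.36 and 10.46 with DMSO (-0.40 ± 0.06, adjusted p = 7.37e-06). ACLY had 13.46 and 13.36 with CSKi, against 13.57 and 13.54 with DMSO (-0.15 ± 0.04, adjusted p = 0.00162). No CSKi library of these genes reached the DMSO libraries. PMVK, the phosphomevalonate kinase gene (-0.23 ± 0.06), and EBP, a sterol isomerase gene (-0.16 ± 0.06), fell as well.

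Among the smaller changes at 24 h several rested on single libraries. DHCR7 stood at 0.12 without CSKi replicate 1 and at 0.17 without DMSO replicate 2, neither called, and at 0.46 without CSKi replicate 2. SQLE (0.06) and SCD (0.05) were not called without DMSO replicate 2, SCD also not without CSKi replicate 1 (0.11), and both were higher without DMSO replicate 1 (0.23 and 0.25). STARD4 was lost without CSKi replicate 2 (0.17) or DMSO replicate 2 (0.15), EBP without CSKi replicate 1 (-0.10) or DMSO replicate 1 (-0.10), and PMVK without DMSO replicate 1 (-0.14). FDFT1 stayed called at 0.16 without DMSO replicate 2, and ACLY at -0.10 without CSKi replicate 2.

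The change of the response between 6 and 24 h was tested itself, as the CSKi effect at 24 h minus that at 6 h. Here 18 of 28 members rose and 1, PMVK, fell, where 15.4% of features rose and 14.1% fell, and the median was 0.37 beside 0.01 over all features. Of 9 squalene and sterol genes 8 rose, with EBP the exception at -0.03 ± 0.09. HMGCS1 moved by 0.85 ± 0.08, DHCR7 by 0.80 ± 0.11, MVD by 0.79 ± 0.11, LSS by 0.75 ± 0.07, SQLE by 0.54 ± 0.07 and SCD by 0.53 ± 0.07. FASN (0.10 ± 0.06), ACACA (-0.15 ± 0.09) and ACLY (-0.03 ± 0.05) did not pass the test. Without any 1 library 15 to 19 members were called, and ACAT2, HSD17B7, a sterol ketoreductase gene, IDI1, NSDHL and STARD4 were each lost without at least 1. Of the 13 genes that fell at 6 h, 5 had risen at 24 h (DHCR7, FDFT1, HMGCS1, SCD and SQLE), 3 were still lower (ACACA, ACLY and FASN) and 5 were not called (ACAT2, CYP51A1, FADS1, IDI1 and MVK).

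Vehicle libraries moved over the same hours, so a difference at 24 h can come from either arm. In TMD8 with DMSO, 25 of 28 members changed over the 4 times by an F test, where 58.4% of features did. From 1 h the members were mostly lower later on. At 3 h 16 were lower and 1, INSIG1, was higher than at 1 h (9.68% of features each way), and at 6 h 19 were lower and none higher (12.4% and 11.2%). At 24 h 17 were lower and 3 higher than at 1 h (23.9% and 22.8%, 46.7% in all). HMGCS1 had mean differences from 1 h of -0.42 ± 0.06 at 3 h, -0.70 ± 0.06 at 6 h and -0.61 ± 0.06 at 24 h. LSS stayed at -0.11 ± 0.05 and 0.00 ± 0.05 at 3 and 6 h, neither past the test, and was at -0.68 ± 0.05 at 24 h.

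Setting 24 h against 6 h within each arm separates the parts. With CSKi 19 members were higher at 24 h and 1, FDPS, was lower (23.4% and 25.4% of features), and with DMSO 10 were higher and 6 lower (20.6% and 20.9%). HMGCS1 was higher by 0.94 ± 0.06 with CSKi and stood at 0.09 ± 0.06 with DMSO. LSS differed the other way, at 0.07 ± 0.05 with CSKi and -0.68 ± 0.05 with DMSO, and thus its gap at 24 h came with a lower vehicle level. SREBF2 combined both, with 0.34 ± 0.05 under CSKi and -0.20 ± 0.05 under DMSO, where the call was lost without DMSO replicate 2 of 24 h (-0.15). FDPS under CSKi (-0.12 ± 0.05) was not called without CSKi replicate 2 of 24 h (-0.03), CSKi replicate 1 of 6 h (-0.10) or CSKi replicate 2 of 6 h (-0.13). The fatty acid genes were higher at 24 h in both arms, 5 of 7 with CSKi and 6 of 7 with DMSO. FASN stood at 0.61 ± 0.04 with CSKi and 0.52 ± 0.04 with DMSO, and SCD at 1.11 ± 0.05 with CSKi and 0.58 ± 0.05 with DMSO. SREBF1 was higher by 1.25 ± 0.14 with CSKi and by 1.43 ± 0.14 with DMSO. These comparisons within the arms were added after the values had been seen.

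**Figure D3:**
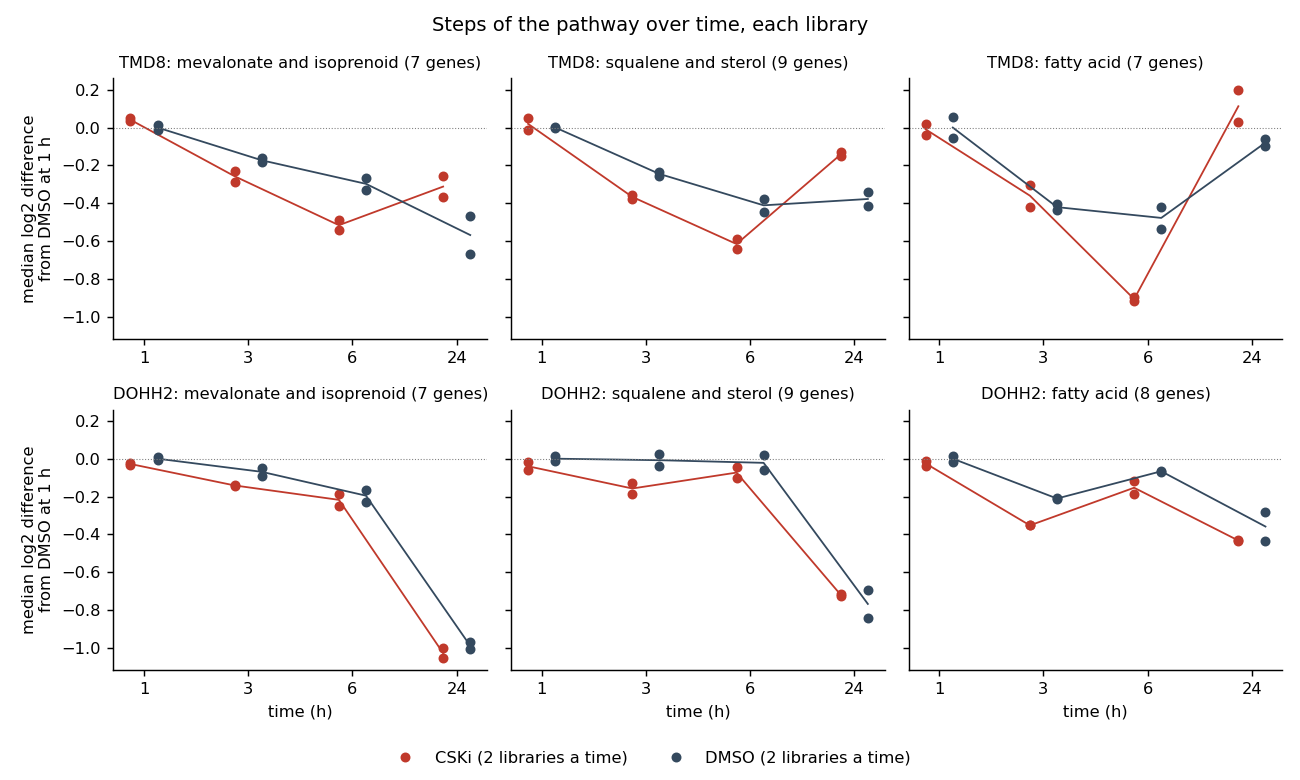
Median over the genes of a role of the log2 difference from the mean of DMSO at 1 h (y axis), for each library against time in h (x axis), with CSKi in red left of DMSO in dark blue; TMD8 is above and DOHH2 below, and lines join the means of 2 libraries. In TMD8 the fatty acid genes with CSKi lie lowest at 6 h (-0.90 and -0.92) and return by 24 h (0.20 and 0.03). In DOHH2 the mevalonate genes lie at -0.25 to -0.16 at 6 h and near -1 in all 4 libraries of 24 h.

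The medians by role are of differences from DMSO at 1 h, and another gene can be the median in each library. For the squalene and sterol genes of TMD8 the medians at 6 h were -0.59 and -0.64 with CSKi, against -0.45 and -0.38 with DMSO, and at 24 h -0.15 and -0.13 with CSKi, against -0.34 and -0.42 with DMSO. The libraries of the groups did not overlap at either time. For the mevalonate and isoprenoid genes they were -0.54 and -0.49 with CSKi at 6 h, against -0.27 and -0.33 with DMSO, and -0.26 and -0.37 with CSKi at 24 h, against -0.47 and -0.67 with DMSO. For the fatty acid genes they were -0.90 and -0.92 with CSKi at 6 h, against -0.42 and -0.54 with DMSO. At 24 h the fatty acid medians with CSKi, 0.20 and 0.03, lay above those with DMSO, -0.10 and -0.06. FASN, ACACA and ACLY were nonetheless below DMSO. The median of the CSKi minus DMSO differences at 24 h was -0.15 over the fatty acid genes (3 positive and 4 negative). It was 0.005 over the mevalonate and isoprenoid genes (4 positive and 3 negative). Over the squalene and sterol genes it was 0.15 (8 positive and 1 negative).

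Other genes of the pathway were taken from lists drawn up with earlier results of these data known. Their counts stand beside 6.98% of all features that fell and 5.67% that rose at 6 h, and 26.2% that fell and 27.9% that rose at 24 h. Of 10 further sterol and isoprenoid enzyme genes 3 fell in TMD8 at 6 h and none rose. Among them were MSMO1, a methyl sterol oxidase (SC4MOL in the table, -0.45 ± 0.12), and TMEM97, a sterol binding protein (-0.31 ± 0.05). At 24 h 2 of the 10 fell, TMEM97 (-0.27 ± 0.05) and COQ2 (-0.22 ± 0.08), and MSMO1 was not called. Of 18 other fatty acid genes tested, 4 fell and 3 rose at 6 h, and 9 fell and 2 rose at 24 h. The elongase gene ELOVL5 was lower at both times (-0.40 ± 0.05 and -0.41 ± 0.05), and HACD3, a dehydratase of fatty acid elongation, at 24 h (-0.53 ± 0.07). AACS, which activates acetoacetate for lipid synthesis, rose by 0.60 ± 0.09 at 6 h and 1.15 ± 0.09 at 24 h, and MID1IP1, whose product promotes acetyl-CoA carboxylase, rose by 0.43 ± 0.08 and 0.72 ± 0.08.

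In the lists of sterol efflux, trafficking, SREBP processing and fatty acid oxidation, the share of genes that rose at 24 h in TMD8 was mostly near the 27.9% of all features. Of 7 tested genes of the oxysterol receptor LXR and its targets, 3 rose and 1 fell at 24 h in TMD8, with the cholesterol exporter gene ABCA1 at 1.36 ± 0.21 and MYLIP, whose product degrades lipoprotein receptors, at 0.68 ± 0.20. Of 9 sterol trafficking genes 3 rose and 1 fell, and NPC2, which carries cholesterol out of lysosomes, rose by 0.87 ± 0.08 after 0.35 ± 0.08 at 6 h. Of 8 genes of SREBP processing and turnover 2 rose and 3 fell at 24 h, with MBTPS1, a protease that cuts SREBP, at 0.39 ± 0.06. Of 11 fatty acid oxidation genes 3 rose and 2 fell, led by ACADVL, an acyl-CoA dehydrogenase gene, at 0.57 ± 0.04.

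In DOHH2 all 29 members passed the filter, and members fell mainly at 3 h. At 1 h none of the 29 was called, where 2.05% of features were (0.825% higher and 1.23% lower). At an unadjusted p under 0.05 there were 4, all lower (13.9% of features in either direction), and voom called 0. At 3 h 9 members fell and none rose, where 7.27% of features fell and 7.28% rose, with 4 of 8 fatty acid genes among them. The median of all members was -0.08 beside 0.00 over all features.

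FASN in DOHH2 at 3 h had 13.18 and 13.20 with CSKi, against 13.49 and 13.49 with DMSO (-0.30 ± 0.04, adjusted p = 6.38e-06). SCD had 12.90 and 12.88 with CSKi, against 13.14 and 13.13 with DMSO (-0.24 ± 0.03, adjusted p = 1.04e-05). FADS2, the desaturase gene nearly silent in TMD8, had 10.89 and 10.90 with CSKi, against 11.19 and 11.23 with DMSO (-0.31 ± 0.05, adjusted p = 0.000109). Duplicates of these 3 genes lay close together, and no CSKi library overlapped a DMSO library. SREBF1 had 8.46 and 8.42 with CSKi, against 8.91 and 9.01 with DMSO (-0.51 ± 0.09, adjusted p = 0.000257). HMGCS1 (-0.08 ± 0.04), SQLE (-0.03 ± 0.04), SREBF2 (-0.01 ± 0.04) and INSIG1 (0.12 ± 0.05) did not pass the test.

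The other 5 falls at 3 h were smaller, DHCR7 at -0.22 ± 0.06, FADS1 at -0.23 ± 0.06, MVD at -0.19 ± 0.06, EBP at -0.13 ± 0.04 and LSS at -0.12 ± 0.04. The last 3 were lost without any 1 of the 4 libraries (adjusted p up to 0.28), DHCR7 without CSKi replicate 2 (-0.18), DMSO replicate 1 (-0.23) or DMSO replicate 2 (-0.20), and FADS1 without CSKi replicate 1 (-0.21), DMSO replicate 1 (-0.23) or DMSO replicate 2 (-0.23). The count was 5 without CSKi replicate 2 and 4 without either DMSO library. With the libraries of 24 h kept in the fit it was also 4, and 315 features were called, against 1745 in the main fit.

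By 6 h 1 member remained lower in DOHH2, FASN, where 6.67% of features fell and 6.96% rose. It had 13.49 and 13.63 with CSKi, against 13.74 and 13.86 with DMSO (-0.24 ± 0.04, adjusted p = 0.000142). Both CSKi libraries were below both DMSO libraries. With the 24 h libraries kept in the fit, or without a trend in the variance model, FASN was not called (adjusted p up to 0.132). SREBF1 was at -0.04 ± 0.09, SCD at -0.03 ± 0.03 and HMGCS1 at -0.05 ± 0.04.

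Among the other genes of the pathway in DOHH2, ABCA1 rose by 0.41 ± 0.10 and NPC2 by 0.28 ± 0.09 at 3 h. Each was the only 1 to rise in its list, of 6 LXR and efflux genes and of 9 sterol trafficking genes tested, where 7.28% of features rose. MYLIP rose by 0.68 ± 0.11 at 1 h, when no member was called.

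**Figure D4:**
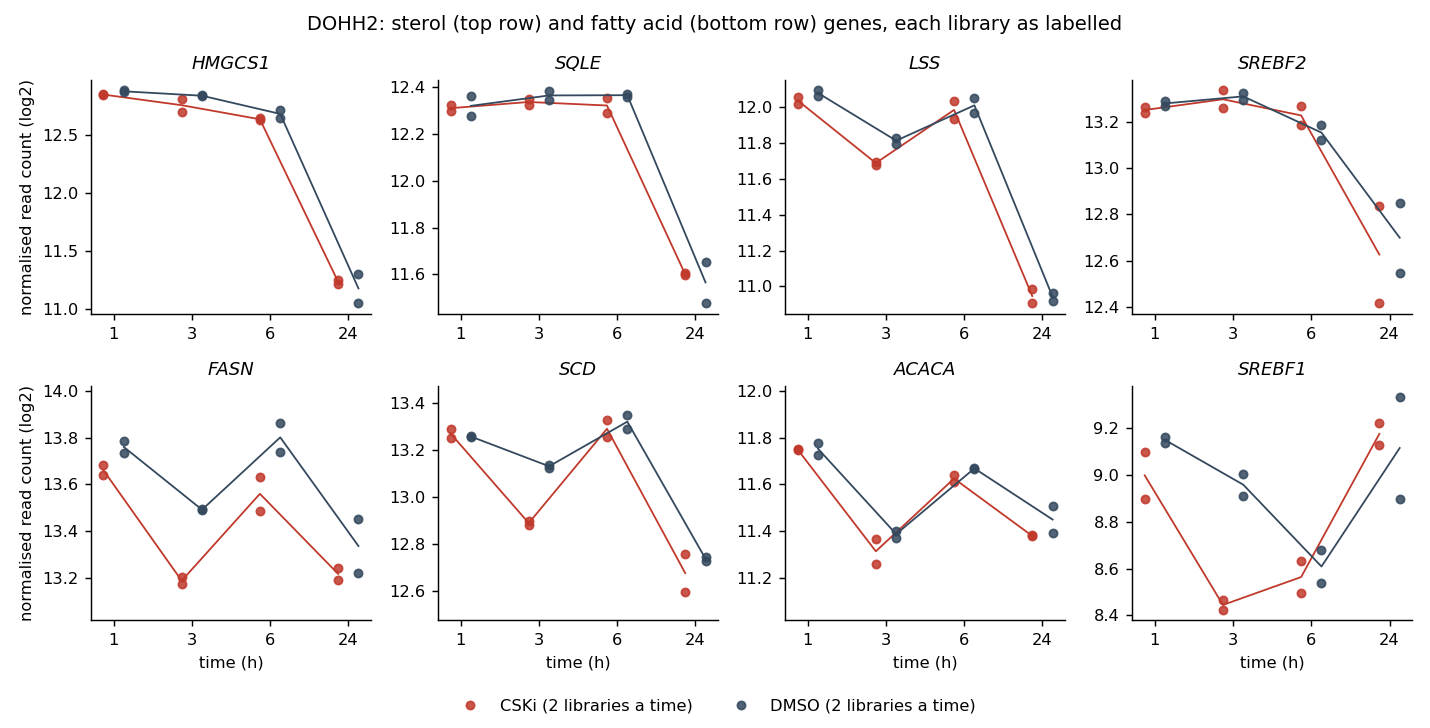
Normalised read count (log2, y axis) of the same 8 genes in each DOHH2 library against time in h (x axis), as labelled, with CSKi in red left of DMSO in dark blue; lines join the means of 2 libraries. FASN, SCD and SREBF1 with CSKi lie below DMSO at 3 h, and HMGCS1, SQLE and LSS lie far below their earlier values in all 4 libraries of 24 h.

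As labelled, none of the 29 members differed between CSKi and DMSO at 24 h in DOHH2, and 0.00% of features did. At an unadjusted p under 0.05 there were 0 members and 378 features, and voom called 0 of either. Since these 4 libraries stand apart from their labels, they were compared over both treatments with the 4 libraries of 1 h, a comparison added after the values had been seen. Then 25 of 29 members were lower at 24 h and none higher, where 15.0% of features were lower and 15.5% higher. The same 25 had all 4 libraries of 24 h below all 4 of 1 h, as did 13.3% of all features tested. The median was -0.57 beside 0.00 over all features.

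All 7 mevalonate and isoprenoid genes of DOHH2 were lower at 24 h, and HMGCS1 moved most, by -1.65 ± 0.05. Its values at 24 h were 11.25 and 11.22 in the libraries labelled CSKi and 11.30 and 11.05 in those labelled DMSO, against 12.84 and 12.85 with CSKi and 12.86 and 12.88 with DMSO at 1 h. INSIG1 followed with 10.50 and 10.83 under the CSKi label and 10.73 and 10.31 under the DMSO label, against 12.11 and 12.06 with CSKi and 12.21 and 12.25 with DMSO at 1 h (-1.56 ± 0.08). In both genes the labelled treatments overlapped at 24 h, while the times were more than 1 log2 unit apart. ACAT2 (-1.15 ± 0.06), MVD (-1.11 ± 0.06), LSS (-1.11 ± 0.04) and FDFT1 (-1.06 ± 0.05) were lower by similar amounts, and SQLE by less (-0.73 ± 0.04). The fatty acid genes moved less, with 7 of 8 lower, SCD at -0.56 ± 0.04 and FASN at -0.43 ± 0.05. TM7SF2 (-0.04 ± 0.09), SREBF1 (0.07 ± 0.09), SCAP (0.01 ± 0.04) and ACSS2 (-0.07 ± 0.11) did not pass the test. Without any 1 of the 8 libraries 24 to 25 members were called, and EBP (-0.18 ± 0.05) was the member lost, without CSKi replicate 2 or DMSO replicate 1 of 1 h (-0.17 each) or DMSO replicate 1 of 24 h (-0.12).

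The enzymes outside the member list followed in DOHH2 at 24 h. Of 10 further sterol and isoprenoid genes 6 were lower and none higher, among them MSMO1 (-0.80 ± 0.13) and ERG28, a scaffold of sterol demethylation (-0.65 ± 0.05). ABCA1 (0.40 ± 0.10) and INSIG2, a relative of INSIG1 (0.40 ± 0.10), were higher. In the list of LXR targets and sterol efflux, 6 genes were tested, 1 higher and 1 lower. In that of SREBP processing and turnover, 8 were tested, 2 higher and 0 lower. Over all features 15.5% were higher and 15.0% lower. In DOHH2 vehicle up to 6 h the members moved less, with 19 of 29 changed over 1, 3 and 6 h by the F test, where 52.9% of features changed. At 3 h 11 members were lower than at 1 h and none higher (17.3% and 16.5% of features, 33.8% in all), and at 6 h 11 were lower and 1, SCAP, higher (23.4% and 20.3%, 43.7% in all). HMGCS1 stood at -0.04 ± 0.04 at 3 h, which did not pass the test, and was lower by -0.20 ± 0.04 at 6 h, and ACACA was lower at 3 h (-0.36 ± 0.04).

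Whether the lines responded differently was tested as the CSKi effect in TMD8 minus that in DOHH2, over 28 members, since FADS2 passed the filter of this fit only through its reads in DOHH2. At 1 h none of 28 members differed (0.450% of features, 0.333% higher and 0.117% lower). With FADS2 counted, 4 of 29 had an unadjusted p under 0.05, as did 7.02% of all features, and voom called 0. At 3 h none differed (4.83% of features, 2.18% higher and 2.64% lower). With FADS2 counted, 5 of 29 had an unadjusted p under 0.05, as did 16.7% of all features, and voom called 0. The difference for SREBF1 was 0.60 ± 0.18 (adjusted p = 0.0515). At 6 h 8 members had a lower response in TMD8 and none a higher one, where 3.46% of features were lower and 2.52% higher (5.97% in all). HMGCS1 stood at -0.50 ± 0.06 in TMD8 and -0.05 ± 0.04 in DOHH2, a difference of -0.46 ± 0.08 (adjusted p = 0.000483). SCD stood at -0.38 ± 0.05 in TMD8 and -0.03 ± 0.03 in DOHH2, a difference of -0.35 ± 0.06 (adjusted p = 0.00055). SQLE differed by -0.35 ± 0.07 (adjusted p = 0.00138) and CYP51A1 by -0.39 ± 0.08 (adjusted p = 0.00374). FASN, lower in both lines, differed by -0.18 ± 0.07 and did not pass the test (adjusted p = 0.135).

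The other members with a different response at 6 h were FDFT1 (-0.28 ± 0.07), ACAT2 (-0.36 ± 0.09), FADS1 (-0.53 ± 0.14) and DHCR7 (-0.39 ± 0.11), and each was lost without at least 1 library. The count was 4 without DMSO replicate 1 of TMD8, and 5 without CSKi replicate 2 of TMD8, CSKi replicate 2 of DOHH2 or DMSO replicate 1 of DOHH2. Over all alternatives the value lay from -0.43 to -0.28 for ACAT2 and from -0.32 to -0.25 for FDFT1. With the DOHH2 libraries of 24 h kept in the fit, 3 members and 250 features were called, against 717 features in the main fit.

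In vehicle, the lines differed in the level of most of these genes, a share near the 89.4% of all features. Over DMSO at 1, 3 and 6 h (n = 6 libraries per line), 9 of 28 members were higher in TMD8 and 17 higher in DOHH2, with FADS2 left out because it passed the filter only through DOHH2, where it is high. Over all features 43.8% were higher in TMD8 and 45.6% in DOHH2 (89.4% in all). The fatty acid genes showed the widest gaps, with a median difference of TMD8 minus DOHH2 of -1.36, 5 of 7 lower and 2 higher in TMD8. All 4 regulators were lower in TMD8 as well.

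**Figure D5:**
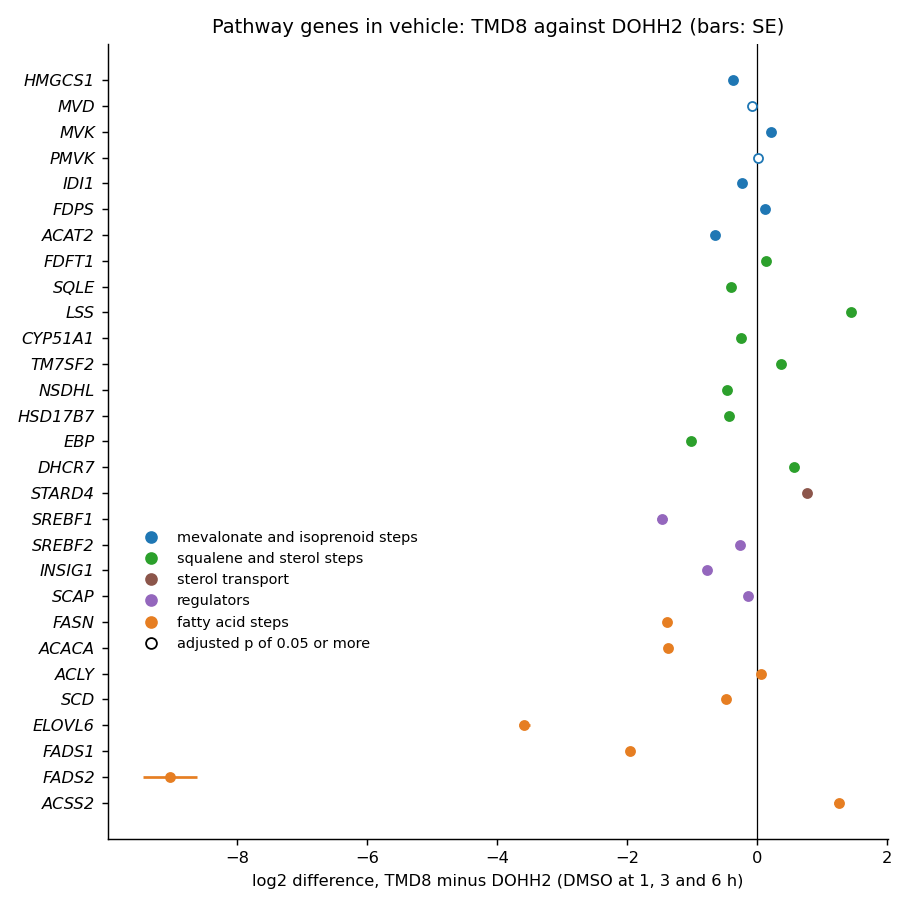
Log2 difference of TMD8 minus DOHH2 in vehicle at 1, 3 and 6 h (x axis) for the 29 members (rows, coloured by role); bars are the SE of the fit, and open circles have an adjusted p of 0.05 or more. LSS lies at 1.44 and FASN at -1.39, and the place of FADS2 far to the left rests on at most 10 reads in each of these TMD8 libraries.

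At 1 h in vehicle FASN had log2 values of 12.56 and 12.69 in TMD8, against 13.73 and 13.79 in DOHH2, and over the 3 times the difference was -1.39 ± 0.03 (adjusted p = 1.8e-23). ACACA had 10.54 and 10.51 in TMD8, against 11.78 and 11.73 in DOHH2 (-1.36 ± 0.03, adjusted p = 7.57e-23). SREBF1 had 7.75 and 8.06 in TMD8, against 9.14 and 9.16 in DOHH2 (-1.47 ± 0.07, adjusted p = 2.71e-15). No library of one line overlapped the other in these genes. ELOVL6 differed by -3.58 ± 0.09 and FADS1 by -1.95 ± 0.06. FADS2 had 1 to 12 reads per TMD8 library over all groups, against 806 to 1961 reads per DOHH2 library. In the opposite direction, LSS had 13.44 and 13.44 in TMD8, against 12.06 and 12.09 in DOHH2 (1.44 ± 0.03, adjusted p = 7.57e-23). EBP, at -1.01 ± 0.03, and INSIG1, at -0.78 ± 0.03, were lower in TMD8, and SREBF2 differed less, by -0.26 ± 0.03.

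Per kilobase of transcript, the normalised read counts of DMSO at 1 h place FDPS, the farnesyl diphosphate synthase gene (5821 and 5825 in TMD8, against 5408 and 5412 in DOHH2), and FDFT1 (5573 and 5500 in TMD8, against 4428 and 4521 in DOHH2) highest among the members in both lines. In each line both values of FDPS lay above both of FDFT1. ACLY came next with 3235 and 3166 in TMD8, against 2985 and 3010 in DOHH2. SREBF2 had 1662 and 1673 in TMD8, against 1882 and 1915 in DOHH2, and SREBF1 50.6 and 62.6 in TMD8, against 132.5 and 134.8 in DOHH2. In both lines the SREBF2 transcript was thus more abundant per length than that of SREBF1. The lengths are of 1 RefSeq transcript per gene and other isoforms would change them.

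Processed copies of FDPS, CYP51A1, HSD17B7 and SCD exist in the genome, ACAT2 overlaps TCP1 on the other strand, and whether the counting used strand is unknown, so reads could be shared in these genes.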

How the data were processed

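RNA of TMD8 and DOHH2 cells was sequenced from stranded mRNA libraries as paired reads, per the labels' protocols. The submitters' processing notes name the build hg19 and HTSeq, a read counter. Versions, aligner and strand setting: not given in the sources used here. Normalised counts on the log2 scale were deposited by the authors in 1 table, per the file headers. For each library 1 factor turned these back into reads: among values up to 300 reads, 99.8 to 100.0% fell within 0.1 of a whole read. The recovered reads were used for voom, an alternative. Total mapped reads were 12273442 to 24907030 (median 17196809.5); lower depth widens the error of genes with few reads.

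limma 3.58.1 (R 4.3.3) fitted group means to the log2 values with a variance trend, two-sided, over the 12000 features with the highest mean, adjusted by Benjamini-Hochberg and called at 0.05. TMD8 contrasts used 16 libraries, DOHH2 contrasts at 1, 3 and 6 h 12, those at 24 h 16, and line differences 28. The labels call duplicates bio replicates without naming separate cultures, so p-values measure the spread between these libraries, which may be technical. Same-numbered libraries deviated little together (r of deviations -0.02 to 0.07), so no pairing was used. In DOHH2 at 24 h, where the labels look crossed, r was -0.38.

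The members, lists, tests and the naming rule were chosen with earlier results of these data known. Up to 8 called members with the smallest p per comparison are named, with HMGCS1, SQLE, LSS, FASN, SCD, INSIG1, SREBF1 and SREBF2 in any; other called members and list genes were named after their values were seen. Symbols matched all 29 members; 21304 IDs of the table matched a current symbol. Alternatives were other filters, quantile normalization, no variance trend, voom, a replicate block, other sets of libraries and leaving out each library. The steps were tested on simulated data. Figures were drawn with matplotlib 3.10.9 and tables with pandas 2.3.3 in Python 3.11.15. Values of some list genes are not reported here.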

Additional observations from a re-analysis of the deposited data

Results flagged for a closer look

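The CSKi response at 6 h differed between the lines in 8 members by a test of the difference itself. The log2 differences of TMD8 minus DOHH2 were -0.46 for HMGCS1, -0.35 for SCD, -0.35 for SQLE, -0.39 for CYP51A1, -0.28 for FDFT1, -0.36 for ACAT2, -0.53 for FADS1 and -0.39 for DHCR7.

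Within TMD8, the CSKi response at 24 h differed from that at 6 h in 19 members, again by a test of the difference. The 8 with the smallest p were LSS (0.75), HMGCS1 (0.85), SCD (0.53), SREBF2 (0.54), MVD (0.79), SQLE (0.54), DHCR7 (0.80) and FDFT1 (0.49), all with a higher response at 24 h. In LSS the CSKi libraries stood at 0.07 and the DMSO libraries at -0.68 at 24 h relative to 6 h, and in HMGCS1 at 0.94 with CSKi and 0.09 with DMSO.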

How the results depend on the processing

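Counts of members called that moved by over 1.5 times or crossed 0 were few. For TMD8 at 3 h (3 called), 1 was called without a variance trend and 7 with a fit of only the groups compared. Features called were then 338 and 1196, against 568 in the main fit. For DOHH2 at 1 h (0 called), a fit of only the groups compared called 1, with 332 features called against 246. With the DOHH2 libraries of 24 h kept in the fit, fewer members and fewer features were called. DOHH2 at 3 h had 4 members (9 without them) and 315 features (1745 without them). At 6 h it had 0 members (1 without them) and 106 features (1635 without them). DOHH2 vehicle over time had 11 members (19 without them) and 2964 features (6343 without them). The line difference at 6 h had 3 members (8 without them) and 250 features (717 without them). Without a variance trend DOHH2 at 6 h gave 0 members and 948 features. For the line difference at 1 h (0 called), 1 was called with no filter on low values and 1 without a variance trend. Features called were then 70 and 48, against 54 in the main fit. The cause was not tested.

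Leaving out 1 library gave 1 to 1 members for TMD8 at 3 h, 9 to 10 at 6 h and 13 to 18 at 24 h. For DOHH2 at 3 h the members lost without 1 library are named above. FASN in DOHH2 at 6 h lay from -0.31 to -0.17 over all alternatives. At 24 h the DOHH2 labels look crossed, and calls over all features changed as well without CSKi replicate 2. Members called there without 1 library are therefore not read as a result. The line difference ranged from 0 to 1 at 3 h, the 1 without DMSO replicate 1 of TMD8, and from 4 to 8 at 6 h. Where this left a group with 1 library, that library was assumed to vary like the others. Calls over all features changed in these fits too, so the counts are not a result about the members alone.

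With the replicate number as a block, 12 members were called for DOHH2 at 3 h (9 without the block) and 20 for DOHH2 vehicle over time (19 without it), and all other counts of members were the same. Features called for DOHH2 rose with the block, from 246 to 472 at 1 h, 1745 to 2059 at 3 h and 1635 to 2020 at 6 h. For DOHH2 vehicle over time they rose from 6343 to 6787. The r of deviations of same-numbered DOHH2 libraries was -0.02 to 0.06 at 1, 3 and 6 h. Whether the replicate numbers mark a shared batch in DOHH2 was not tested. In a fit of the 4 DOHH2 libraries of 24 h alone, the crossed pairing called 0 members and 3 features, and the labelled pairing 0 and 0.

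Of the values of called members that were refitted under the alternatives, which do not cover the genes of other lists or the single times in vehicle, 122 kept their call under every alternative, 36 lost it under at least 1, and 0 reversed. These totals pool all comparisons, and every call of the line difference in vehicle, FADS2 included, was kept. Calls of CSKi against DMSO lost in TMD8 were FASN, NSDHL and SQLE at 3 h. At 6 h they were ACACA, ACAT2, ACLY, FADS1 and MVK, and at 24 h DHCR7, EBP, PMVK, SCD, SQLE and STARD4. In DOHH2 they were DHCR7, EBP, FADS1, LSS and MVD at 3 h and FASN at 6 h. The line differences lost at 6 h were ACAT2, CYP51A1, DHCR7, FADS1 and FDFT1. With 2 libraries per group, even a wide difference in a gene of few reads could miss the test, as that of ELOVL6 in TMD8 at 6 h did.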
